A study of Mus musculus with 8 samples.

Results

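The FOS and JUN family comprises the core subunits of AP-1, and its 6 members examined here were Fos, Fosb, Fosl2, Jun, Junb and Jund. They were 6 of the 19937 genes with a probe set annotated to a single symbol, and each was represented by 1 such probe set. Expression was profiled in regulatory T cells (Tregs), sorted as CD4+ TCRβ+ CD25+ cells from peripheral lymph nodes and spleen. All recipients were CD3ε-/- mice, which cannot make T cells of their own; after lethal irradiation they received bone marrow from wild-type mice (WT-CD3KO, here WT chimeras) or from IIKO mice (IIKO-CD3KO, here IIKO chimeras). The cells were taken 28 days later, and each group had 4 biological replicates, each on 1 Affymetrix array made from 100 ng of RNA; the labels give strain C57BL/6 and an age of 6 to 8 weeks. According to the labels, peripheral Tregs of the IIKO chimeras are without TCR engagement of MHC class II, and those of the WT chimeras have it. The labels name neither the disrupted class II gene nor the number of mice behind a replicate, and other effects of the donor marrow cannot be told apart from lost TCR engagement.

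AP-1 is a dimer of basic leucine zipper proteins. JUN proteins pair with each other or with FOS proteins, whereas FOS proteins need a JUN partner, and the dimers bind TGACTCA and related sequences. Fos, Fosb, Jun and Junb are immediate early genes, transcribed within minutes of a stimulus and then silenced, while Jund is known for steady transcription. In T cells, TCR signals raise AP-1 through the ERK and JNK kinases, and AP-1 binds beside NFAT at cytokine genes.

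The sequences just upstream of the start sites are shown for Fos, Fosb, Jun and Junb because these are the immediate early members. They were low together in 1 array (below), where Fosl2, not shown here, was also at its lowest. Whether any motif has a part in those low values was not tested. Each line gives the 130 bases before the start, in the direction of the gene, from RefSeq on GRCm38.p6; the table held all 6 members. Capitals mark the CRE core TGACG, the site TGACATCA, the MEF2 site of Jun and the TATA box TATAAA. The windows are chr12:85473760-85473889 (plus strand) for Fos, chr7:19310046-19310175 (minus strand) for Fosb, chr4:95052223-95052352 (minus strand) for Jun and chr8:84978749-84978878 (minus strand) for Junb.
Fos: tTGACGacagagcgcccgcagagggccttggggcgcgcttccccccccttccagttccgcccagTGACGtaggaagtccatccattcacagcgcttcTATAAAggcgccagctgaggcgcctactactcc
Fosb: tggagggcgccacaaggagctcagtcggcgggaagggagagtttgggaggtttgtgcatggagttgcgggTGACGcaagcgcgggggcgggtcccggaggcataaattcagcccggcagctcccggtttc
Jun: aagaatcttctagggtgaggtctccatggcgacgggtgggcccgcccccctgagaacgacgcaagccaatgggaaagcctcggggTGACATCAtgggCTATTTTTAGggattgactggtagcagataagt
Junb: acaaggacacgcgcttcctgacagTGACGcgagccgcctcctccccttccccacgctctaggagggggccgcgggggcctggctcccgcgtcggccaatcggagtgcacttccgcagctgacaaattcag

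Motifs were searched on both strands of the 250 bases before each start. The CRE core TGACG, to which CREB and ATF proteins bind, lay 66 and 129 bases before the start of Fos, 60 bases before that of Fosb and 106 bases before that of Junb. It was present in 3 of the 6 members, and in 17.8% of all 32851 promoter windows of this length. Jun held TGACATCA, an AP-1 site variant, 45 bases before its start (2.93% of all windows), and a MEF2 site, capitalised above, 33 bases before it (34 windows, 0.103%). Fos held TATAAA 33 bases before its start (12.4% of windows). The consensus AP-1 site TGACTCA (4.46% of windows), the full CRE TGACGTCA, which contains the core (1.55%), and the CArG box of serum response factor (1.47%) were in 0 of the 6 windows. In Fosl2 and Jund, of the motifs marked by capitals, none was found. Sites farther than 250 bases before a start were not searched, so 0 matches does not mean that a gene lacks the site. A match describes the letters of the window and no binding was measured.

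The arrays were similar in overall signal, with log2 medians over all probe sets of 6.96 to 7.03. Precision is limited by there being 4 arrays a group. The Treg factor gene Foxp3 had log2 levels of 10.63 ± 0.04 in WT arrays and 10.68 ± 0.12 in IIKO arrays (SD, n = 4 each). Cd4 and Il2ra, which encodes CD25, had means of 10.62 and 12.01 in WT arrays and of 10.75 and 12.18 in IIKO arrays. H2-Eb1, a class II chain, was lower in IIKO chimeras (-0.69 ± 0.08, log2, SE; limma, Benjamini-Hochberg adjusted p = 0.00746); H2-Aa (-0.77 ± 0.21) and H2-Ab1 (-0.71 ± 0.24) did not pass (0.166 and 0.207). IIKO array 3 lay within the WT arrays for H2-Aa (8.06, WT 7.99 to 8.30) and H2-Ab1 (8.27, WT 7.87 to 8.39). The other IIKO arrays were at 6.82 to 7.55 and 7.08 to 7.65. For H2-Eb1 every IIKO array lay below every WT array. A probe set outside a deleted part would not check the deletion. Over all genes, WT array 3 did not stand apart: its mean Pearson's r with the other WT arrays was 0.9945, against 0.9939 to 0.9942 for those. It was low for 5 of the 6 FOS and JUN genes, Jund being the exception, so the members' differences are also given without it.

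None of the 6 members passed the test between WT and IIKO chimeras (limma, adjusted p from 0.314 to 0.809). Over all genes, 0.286% passed this test. At an unadjusted limma p under 0.05 there were 0 of 6 members, against 17.3% of all genes, and 0 of 6 had groups that did not overlap, against 10.5% of all genes. The differences, IIKO minus WT, were positive for 5 of 6 members, with a median of 0.12 log2, against a median of -0.04 and 37.1% positive over all genes. With arrays centred on their medians, 54.5% of all genes were positive, and 2 of 6 members, Fosl2 and Junb, had an unadjusted limma p under 0.05, against 14.9% of all genes. Neither passed after adjustment (limma adjusted p = 0.282 and 0.266). Exact permutation of the arrays (two-sided, 70 labelled splits, smallest possible p = 0.0286) gave p from 0.114 for Junb to 0.743 for Jun. Array levels are compared within a gene only, since probe sets differ in brightness.

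**Figure D1:**
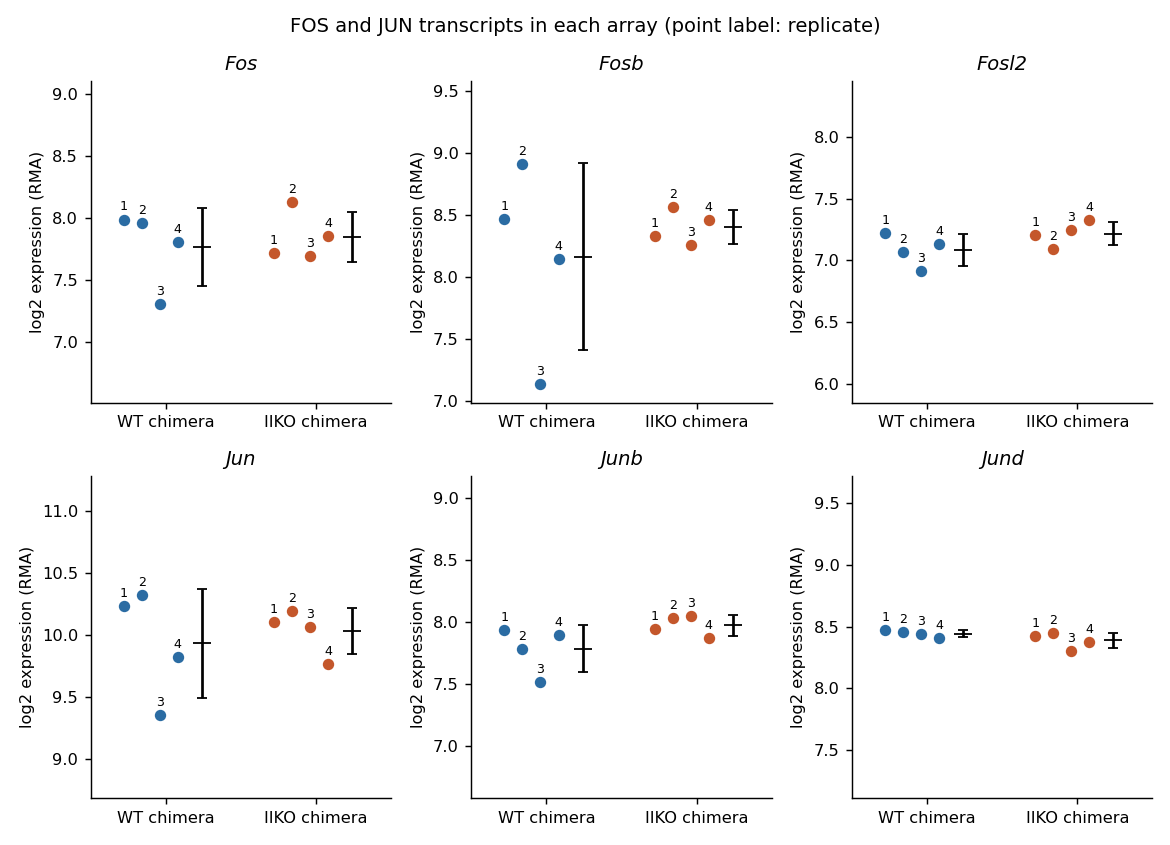
Log2 expression of the 6 genes in each array, by chimera, over axes of equal span; points are arrays with their replicate number, and the bar gives the mean ± SD (n = 4). WT array 3 was the lowest array for every gene except Jund, and the groups overlapped for all 6 genes.

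Fos encodes c-FOS, the prototype FOS protein with a strong activation domain. It was at 7.99, 7.96, 7.31 and 7.80 in WT arrays 1 to 4 and at 7.72, 8.13, 7.69 and 7.85 in IIKO arrays 1 to 4 (log2). The lowest value was that of WT array 3 and the highest that of IIKO array 2, and the groups overlapped. The means were 7.76 ± 0.32 and 7.85 ± 0.20 (SD, n = 4 each). The difference was 0.08 ± 0.15 (log2, SE; limma adjusted p = 0.800), with a 95% confidence interval from -0.25 to 0.42. In folds, the interval ran from 1.19-fold lower to 1.34-fold higher in IIKO chimeras.

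Fosb encodes FOSB, which has an activation domain that its short splice form lacks; the probe set was not assigned to either form. Its WT values were 8.46, 8.92, 7.13 and 8.14, and its IIKO values 8.33, 8.56, 8.26 and 8.46 (log2). The WT arrays held both the highest and the lowest value, 1.79 log2 or 3.45-fold apart, and all IIKO values fell between them, within 0.31. The means were 8.16 ± 0.76 and 8.40 ± 0.14 (SD, n = 4 each), differing by 0.24 ± 0.30 (SE; limma adjusted p = 0.696). The interval of -0.43 to 0.91 spans 1.34-fold lower to 1.87-fold higher, the widest of the 6 genes. The within-group SD of Fosb, 0.54, stood at percentile 99.7 of all genes. Without WT array 3 the SD of its WT values was 0.39. Whether the spread differed between the chimeras was not tested.

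Fosl2 encodes FRA-2, a FOS protein without the strong activation domain that is induced later than c-FOS. It was at 7.22, 7.07, 6.91 and 7.13 in WT arrays and 7.20, 7.10, 7.25 and 7.32 in IIKO arrays (log2). IIKO arrays 3 and 4 were the highest and WT arrays 2 and 3 the lowest, with the other arrays interleaved. The means of 7.08 ± 0.13 and 7.22 ± 0.10 (SD, n = 4 each) differed by 0.14 ± 0.08 (SE; interval -0.04 to 0.31; limma adjusted p = 0.382). All 4 IIKO arrays lay above the WT mean. Fosl1, which encodes FRA-1 and was not counted among the members, is added because it completes the FOS family; it was at 6.37 ± 0.12 and 6.30 ± 0.19 (SD, n = 4 each), differing by -0.07 ± 0.10 (SE; limma adjusted p = 0.746).

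Jun encodes c-JUN, the strongest activator of the JUN proteins and the main target of JNK. Its WT values were 10.23, 10.32, 9.36 and 9.82 and its IIKO values 10.11, 10.19, 10.06 and 9.76 (log2). WT array 3 was again the lowest array, and WT arrays 1 and 2 were above every IIKO array. The means were 9.93 ± 0.44 and 10.03 ± 0.19 (SD, n = 4 each). They differed by 0.10 ± 0.19 (SE; interval -0.32 to 0.52; limma adjusted p = 0.809), which allows 1.25-fold lower to 1.44-fold higher levels.

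Junb encodes JUNB, a weaker activator than c-JUN that pairs with BATF and works with IRF4 in effector T cells and Tregs. It was at 7.93, 7.78, 7.52 and 7.89 in WT arrays and 7.94, 8.03, 8.05 and 7.87 in IIKO arrays (log2). IIKO arrays 1, 2 and 3 lay above all WT arrays, and IIKO array 4 lay below WT arrays 1 and 4. The means of 7.78 ± 0.19 and 7.97 ± 0.08 (SD, n = 4 each) differed by 0.19 ± 0.09 (SE; interval -0.01 to 0.39). This was the smallest limma p of the members (unadjusted p = 0.0646, adjusted p = 0.314) and did not pass.

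Jund encodes JUND, the JUN protein of resting cells. It was at 8.47, 8.45, 8.44 and 8.41 in WT arrays and 8.43, 8.44, 8.30 and 8.38 in IIKO arrays (log2). WT array 3 stood among the other WT arrays here, and the lowest value was that of IIKO array 3. The means of 8.44 ± 0.03 and 8.39 ± 0.06 (SD, n = 4 each) differed by -0.05 ± 0.05 (SE; interval -0.17 to 0.06; limma adjusted p = 0.614). Its within-group SD, 0.05, stood at percentile 5.72 of all genes, against 98.4 for Jun and 96.3 for Fos, 75.9 for Junb and 57.5 for Fosl2. These percentiles include WT array 3. Without it, the SD of the WT arrays went from 0.44 to 0.27 for Jun and from 0.32 to 0.10 for Fos. For Junb it went from 0.19 to 0.08 and for Fosl2 from 0.13 to 0.08, while Jund stayed at 0.03. The interval of Jund thus left room for at most 1.13-fold lower or 1.05-fold higher levels in IIKO chimeras.

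**Figure D2:**
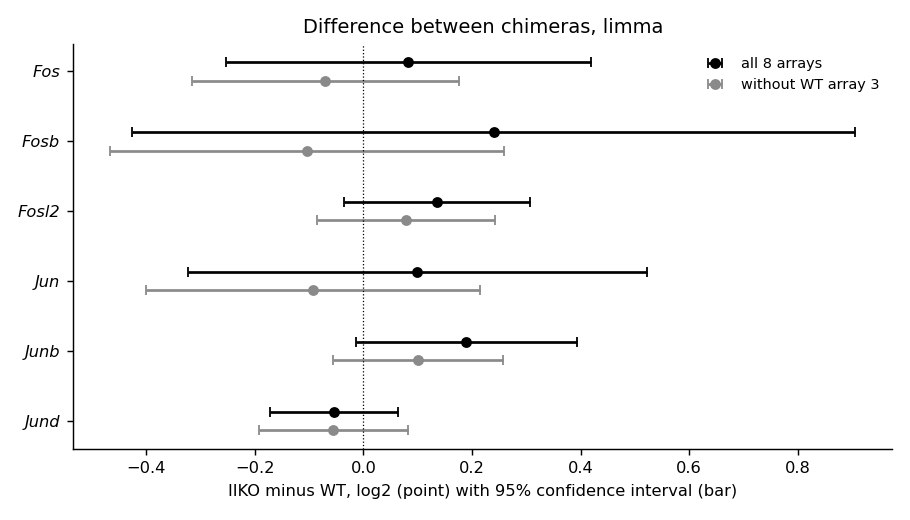
Difference between IIKO and WT chimeras in log2 for each gene (points) with its 95% confidence interval from limma (bars), with all 8 arrays in black and without WT array 3 in grey. Every interval includes 0, and the points of Fos, Fosb and Jun lie on opposite sides of 0 in the 2 fits.

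WT array 3 held the lowest of the 8 values for 5 of the 6 members, against 8.44% of all genes. This pattern was looked for after the values were seen. Against the mean of the other WT arrays it was lower by 1.38 log2 for Fosb (2.60-fold), 0.77 for Jun (1.70-fold), 0.61 for Fos (1.53-fold), 0.36 for Junb (1.28-fold) and 0.23 for Fosl2 (1.17-fold). Jund differed by -0.01. Ranked over all 19937 genes from the lowest, this shift was the 4th for Fosb, the 21st for Jun and the 44th for Fos; the median shift of all genes was -0.01.

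Without WT array 3 the direction of 3 members turned. Fosb then differed by -0.10 (interval -0.47 to 0.26; limma adjusted p = 0.765), Jun by -0.09 (-0.40 to 0.21; 0.752) and Fos by -0.07 (-0.32 to 0.18; 0.768). Fos also turned, to -0.01, without IIKO array 2. Junb (0.10, adjusted p = 0.485) and Fosl2 (0.08, 0.602) stayed above 0 and Jund (-0.06, 0.664) below it, each without passing.

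Other immediate early genes, a list mostly of transcripts that stimuli induce rapidly, were partly low in the same array. Of the 33 measured, 13 had their lowest value in WT array 3 (39.4%, against 8.44% of all genes), and 25 were below the mean of the other WT arrays, against 52.6% of all genes. The lowest were Rgs2, a regulator of G protein signalling (-0.64), Ppp1r15a, the stress phosphatase subunit GADD34 (-0.53), Tnfaip3, the NF-κB inhibitor A20 (-0.52), Dusp1, a phosphatase that shuts off MAP kinases (-0.44), and Nr4a2, an orphan nuclear receptor (-0.40). Egr1, a zinc finger factor often induced together with Fos, went the other way, at 8.67 in WT array 3 and 8.53, 8.35 and 8.40 in WT arrays 1, 2 and 4. Egr2 was likewise highest there among the WT arrays, at 10.82. These genes were named after their values were seen.

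**Figure D3:**
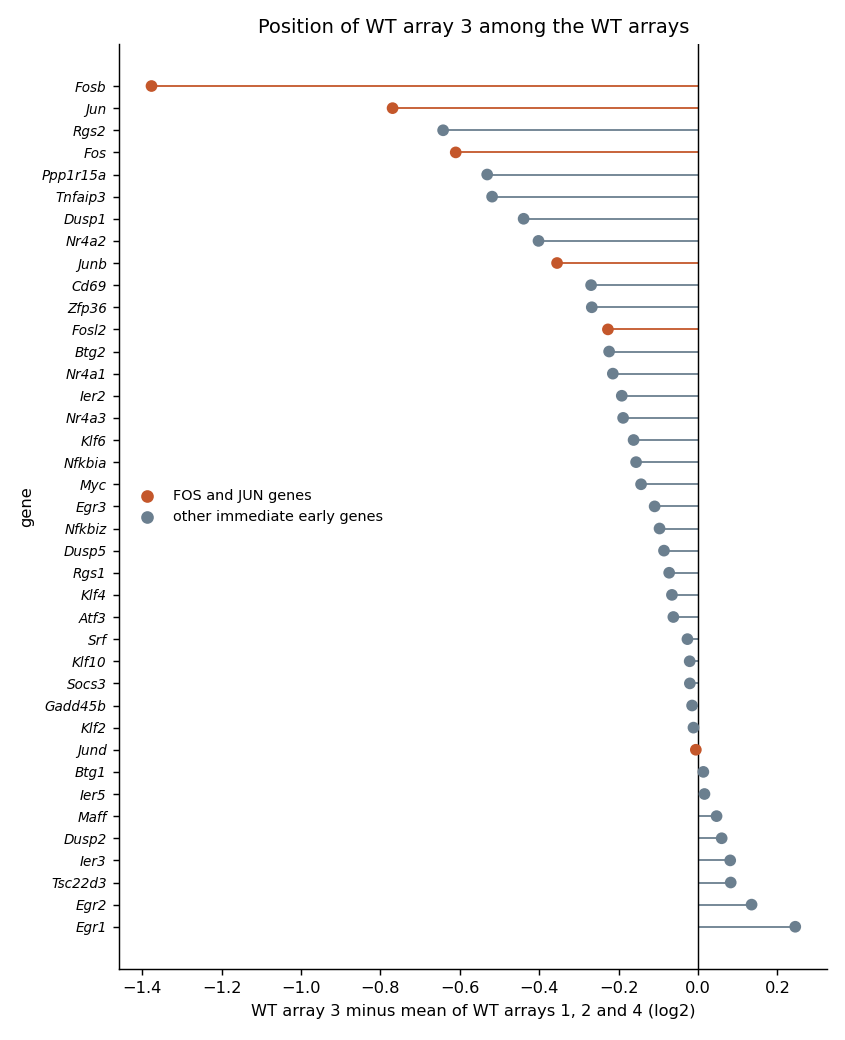
Level in WT array 3 minus the mean of WT arrays 1, 2 and 4 (log2) for the 6 FOS and JUN genes (orange) and 33 other immediate early genes (grey), sorted by value. Fosb, at -1.38, is the lowest, Jund is next to 0 and Egr1, at 0.24, is the highest.

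Markers of the sorted cells and of other cell types were set beside this array. The mean of the 9 markers of T cells and Tregs was 11.75 in WT array 3, the highest of WT arrays, which started at 11.70. Myeloid and dendritic cell markers (17 measured) had their lowest WT mean there, at 6.40, with WT arrays up to 6.62 and IIKO arrays between 6.35 and 6.68. Erythroid and platelet markers (5 measured) were likewise at their lowest there, at 6.74, with the other arrays up to 7.43. Of the 17 myeloid and dendritic cell markers 2 were lowest of all arrays there, and of the 5 erythroid and platelet markers 1. Over all genes this share was 8.44%. Heat shock genes (11 measured) averaged 10.38 in WT array 3, the lowest of the WT arrays, which reached 10.48, and 4 of 11 were lowest of all arrays there; IIKO arrays ranged from 10.36 to 10.52. Thymocyte markers (6 measured) also had their lowest WT mean there, at 6.38, with WT arrays up to 6.46 and IIKO arrays between 6.21 and 6.47. B and plasma cell markers (10 measured) averaged 6.07 there, within 5.89 to 6.09 over WT arrays. NK and CD8 T cell markers (9 measured) averaged 7.01, within 6.83 to 7.01. Stroma markers (8 measured) averaged 7.60, within 7.60 to 7.68. The thymocyte, B and plasma cell, NK and CD8 T cell and stroma lists had 0 genes with their lowest value in this array. The part of these markers in the low values of WT array 3 was not tested. Between the chimeras, 0 markers of any of these 7 lists passed the limma test; the smallest adjusted p was that of Nkg7, a granule protein of cytotoxic cells (-0.35 ± 0.07, log2, SE; adjusted p = 0.0847). Unadjusted, 4 of 8 stroma markers (1 higher, 3 lower), 4 of 9 NK and CD8 T cell markers (2 and 2) and 2 of 6 thymocyte markers (1 and 1) had a limma p under 0.05, against 17.3% of all genes. The same held for 2 of 9 T cell and Treg markers, both higher, 2 of 10 B and plasma cell markers and 2 of 17 myeloid and dendritic cell markers, all lower, and 0 of 5 erythroid and platelet markers. Their part in the members' values was not tested. In bulk RNA, fewer cells with a transcript and less of it per cell cannot be told apart.

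Across the 8 arrays, the highest correlations among the members were those of Fos, Fosb and Jun with each other, and 0 of the 15 pairs passed after adjustment. Fosb and Jun had Pearson's r = 0.885 (exact permutation p = 0.00551, adjusted p = 0.0686 over 15 pairs) and Spearman's rho = 0.833 (exact p = 0.0154, adjusted p = 0.115). Fos and Fosb had r = 0.885 (exact p = 0.00915, adjusted p = 0.0686) and rho = 0.857 (exact p = 0.0107, adjusted p = 0.115). For Fos and Jun r was 0.807 (exact p = 0.0194, adjusted p = 0.0970) and rho 0.691 (exact p = 0.0694, adjusted p = 0.312). No other pair had a permutation p under 0.05 by either measure.

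These correlations rested in part on WT array 3. Without it, r was 0.616 for Fos and Fosb, 0.642 for Fosb and Jun and 0.461 for Fos and Jun. Without the 2 arrays farthest from the median of the first gene, r fell to 0.437 for Fosb and Jun (WT arrays 2 and 3 left out), 0.684 for Fos and Fosb and 0.407 for Fos and Jun (WT array 3 and IIKO array 2 left out). Fosb and Jun passed without IIKO array 4 (r = 0.972, exact permutation, adjusted p = 0.00893). Jund had r of 0.264 with Fos, 0.0743 with Fosb and 0.173 with Jun over all 8 arrays, and of 0.693, 0.517 and 0.516 without WT array 3, where it was level while the others were low. Its Spearman's rho over all 8 arrays was 0.595 with Fos, 0.571 with Fosb and 0.667 with Jun (exact permutation, adjusted p = 0.378, 0.378 and 0.312). With each group's mean subtracted, r was 0.8822 for Fos and Fosb, 0.8835 for Fosb and Jun and 0.8015 for Fos and Jun. Among the IIKO arrays alone, too few for a correlation, Jun was lowest in array 4, at 9.76, where Fosb and Fos were each second highest, at 8.46 and 7.85.

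**Figure D4:**
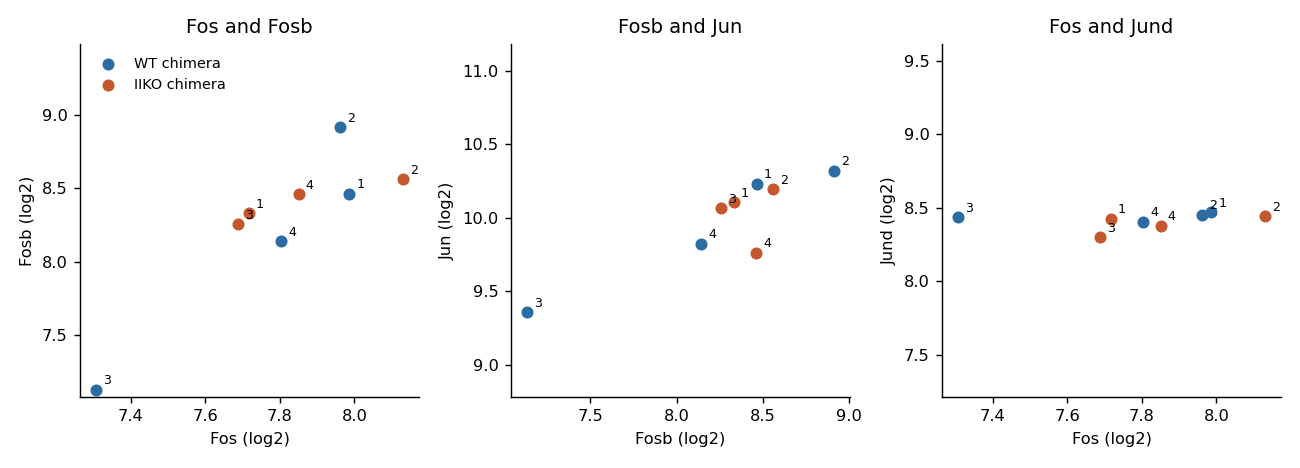
Log2 levels of Fos and Fosb, Fosb and Jun, and Fos and Jund over the 8 arrays (WT blue, IIKO orange, replicate numbers beside the points). WT array 3 lies at the lower left in the first and second panels and level with the other arrays in the panel of Jund, whose vertical axis spans the same log2 range.

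The genes with the most similar profile over the 8 arrays were ranked by Pearson's r among 9453 named genes at or above the median level, as a description. Closest to Fos were Rbm5, an RNA-binding splicing factor (r = 0.957), Txndc5 (0.921) and Arid3a (0.916). Closest to Fosb were Exosc10, a nuclear exosome subunit (0.965), Tbc1d10a (0.922) and Xpo1, the nuclear exporter (0.921), and closest to Jun were Prps1 (0.950), Kti12 (0.945) and Gfm1 (0.941). Fosl2 was closest to Esyt1 (0.925), Dpm1 (0.924) and Prr3 (0.924). Junb was closest to Ppp1r13b (0.985), Ddit3, the stress factor CHOP (0.952), and Slc4a1ap (0.945). All 15 of these genes were lowest in WT array 3, as were the members to which they were matched. The ranking used the same 8 arrays, so this is no separate finding about that array. Jund was closest to Uqcrq, a subunit of respiratory complex III (0.986), Surf1, an assembly factor of complex IV (0.967), and Cbx5 (0.963), which were lowest in IIKO array 3 as Jund was.

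Transcripts of other basic leucine zipper proteins, not all of which dimerise with FOS or JUN, did not pass the test. Among 26 measured genes of the BATF, ATF, MAF, CREB and related families, 0 passed, with 1 higher and 0 lower at an unadjusted limma p under 0.05. Over all genes 5.27% were higher and 12% lower at that p, or 9.85% and 5.03% with arrays centred on their medians. The smallest p was that of Nfe2l2, which encodes the oxidative stress factor NRF2, at 8.90 ± 0.15 and 9.25 ± 0.13 (0.36 ± 0.09, SE; limma adjusted p = 0.154). Maff, a small MAF protein, differed by 0.29 ± 0.13 and Bach2, a repressor that competes for AP-1 sites in T cells, by -0.19 ± 0.09 (adjusted p = 0.292 and 0.320).

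The kinase cascades that activate AP-1 had 28 measured genes and 0 past the test, against 0.286% of all genes. Unadjusted, 4 were higher and 2 lower (21.4%, against 17.3% of all genes). The median difference was 0.08, against -0.04 over all genes. Sos1, the exchange factor that loads RAS, differed by 0.22 ± 0.07, Malt1, a paracaspase protease, by 0.41 ± 0.13 and Mapk11, p38β, by -0.23 ± 0.07 (log2, SE; limma adjusted p = 0.181, 0.195 and 0.199). Factors that act at the Fos and Jun promoters, such as serum response factor and MEF2 proteins, had 0 of 13 past the test, also unadjusted (median 0.08). Mef2d (0.13 ± 0.06), Mef2a (0.18 ± 0.09) and the acetyltransferase gene Ep300 (0.11 ± 0.06) had the smallest p of these (limma adjusted p = 0.299, 0.314 and 0.339).

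A list of genes that mostly restrain FOS and JUN held genes acting by mRNA decay, ubiquitination or dephosphorylation of their kinases, among other ways. Of the 22 measured, 0 passed the test, against 0.286% of all genes, and the median was 0.06. Unadjusted, 3 were higher and none lower, or 13.6% against 17.3% of all genes in either direction. The 3 higher genes were the MAP kinase phosphatases Dusp6 (0.24 ± 0.08), Dusp16 (0.28 ± 0.11) and Dusp5 (0.16 ± 0.07, log2, SE, limma adjusted p = 0.206, 0.239 and 0.249). Of the 33 other immediate early genes 0 passed, with 5 higher and 2 lower unadjusted (21.2%, against 17.3% of all genes). Their median was 0.09, and 0.03 without WT array 3. Ier3, a survival gene, differed by -0.41 ± 0.10, Ier5 by 0.26 ± 0.08 and the Krüppel-like factor gene Klf6 by 0.21 ± 0.07 (limma adjusted p = 0.145, 0.178 and 0.202).

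Genes that AP-1 is known to activate in T cells, mostly cytokines and effector molecules, had 0 of 23 past the test, against 0.286% of all genes. Unadjusted, 3 were higher and 1 lower (17.4%, against 17.3% of all genes), and the median was 0.04. This median ran from 0.0058 without WT array 4 to 0.096 without WT array 2. Il2 differed by 0.44 ± 0.11, Il10 by 0.52 ± 0.13 and Cd40lg, the CD40 ligand gene, by 0.62 ± 0.20 (log2, SE; limma adjusted p = 0.157, 0.157 and 0.194). NFAT and calcineurin genes with Irf4 had 0 of 9 past the test; Irf4, which binds with BATF and JUN at composite sites, was at 8.29 ± 0.10 and 8.55 ± 0.09 (0.26 ± 0.07, SE; limma adjusted p = 0.1605), Nfatc1 differed by 0.15 ± 0.08 (0.365) and Nfat5 by 0.15 ± 0.09 (0.400). Heat shock genes had 0 of 11 past the test, also unadjusted, with a median of -0.0005; Bag3, a co-chaperone, differed by -0.15 ± 0.08 (limma adjusted p = 0.336), Dnaja1 by 0.13 ± 0.07 (0.365) and Dnajb1 by 0.10 ± 0.07 (0.505).

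Over the 8 lists together, 155 different genes besides the members were measured and 0 passed the limma test. Unadjusted, 16 were higher and 5 lower, 13.5% in all against 17.3% of all genes. With arrays centred on their medians the split was 41 and 2, or 27.7% against 14.9% of all genes, so the order of these shares turned with the scaling. Without WT array 3, 24 genes had such a p and 0 passed.

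**Figure D5:**
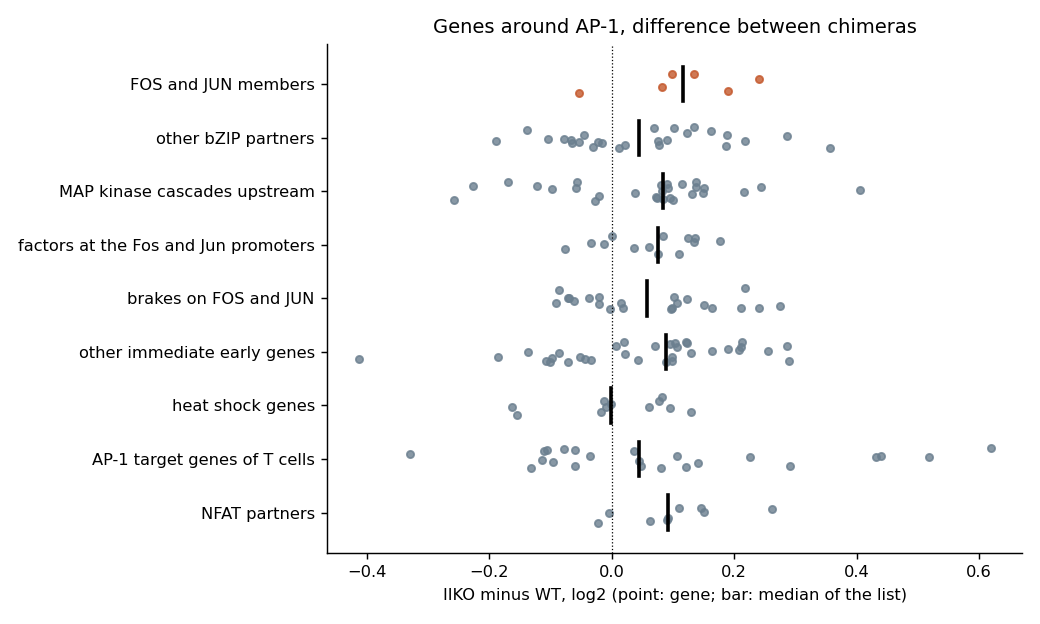
Difference between IIKO and WT chimeras (log2) for each measured gene of the FOS and JUN family and of 8 lists around it; points are genes and black bars are list medians, which lie between -0.0005 and 0.12. Each point is a mean difference over 4 and 4 arrays, and 0 of them passed the limma test.

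The 6 members lie on chromosomes 12 (Fos), 7 (Fosb), 5 (Fosl2), 4 (Jun) and 8 (Junb and Jund). Among the 20 tested genes on either side of each, 0 changed between the chimeras. Chromosome 7 held 17 changed genes among 1734 tested, none of them in that range around Fosb.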

How the data were processed

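Sorted Tregs of 4 WT and 4 IIKO chimeras were profiled on 1 array each, grouped by sample title. Each deposited table row holds a probe set's log2 level, for which the submitters' processing notes name affy and RMA, the authors' background correction, quantile scaling and probe summary; versions: not given in the sources used here. Probe-level data were not used here, so background could not be examined. Labels call the samples biological replicates without stating their source animals; p-values reflect only how far these samples spread, and no array duplicated another (smallest SD of a difference 0.185).

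Of 34760 probe sets, 21640 carried 1 symbol; the brightest per gene was kept (19937 genes, no filter on dim genes). Limma 3.58.1 in R 4.3.3 was fitted to all genes, IIKO minus WT, with Benjamini-Hochberg adjustment, a threshold of 0.05 and two-sided tests, and was tested on simulated data. The members and lists were chosen with earlier results of these data known. Named genes were the members, per list the 3 genes of smallest p (2 for markers), the 3 most correlated named genes per member, checks of cells and marrow, and changed neighbours. Correlations used exact permutation over arrays. Alternatives tried were the replicate number as a block, a threshold of 0.01, quantile normalization, median centring, brighter genes only, trend with robust variance, array weights, probe set means and each array left out. A planned comparison of protein sequences was not made. Figures used matplotlib 3.10.9.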

Additional observations from a re-analysis of the deposited data

Results flagged for a closer look

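Among 100 groups of 4 arrays (50 named genes in each chimera), 6 held an array separated from the others by most of the group's range, where chance gives about 1 in 20. None was a FOS or JUN gene. In WT chimeras, H2-Ab1 was at 7.871 in array 2 (the others 8.304 to 8.386), Ier3 at 6.971 in array 4 (7.162 to 7.192) and Bag3 at 7.893 in array 2 (8.146 to 8.177). In IIKO chimeras, Bag3 was at 7.796 in array 4 (7.971 to 8.007), Il10 at 9.358 in array 3 (9.633 to 9.653) and Ebf1 at 5.146 in array 1 (5.317 to 5.328). All values are log2.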

How the results depend on the processing

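Of 96 alternative limma fits of the members, 92 kept the direction and none passed the threshold (lowest adjusted p 0.249). The 4 that reversed each left out an array: Fos, Fosb and Jun without WT array 3, and Fos without IIKO array 2 (-0.01). The replicate block, brighter genes only, trend with robust variance, probe set means and the threshold of 0.01 left every member's difference as it was. In those settings the direction could not turn. Leaving out each array in turn, in the limma and the exact permutation comparisons alike, gave -0.070 to 0.16 for Fos, -0.10 to 0.49 for Fosb and -0.093 to 0.23 for Jun. After further quantile normalization Jund (-0.086) had an exact permutation p of 0.0286, unadjusted and the smallest possible. It did not pass by limma in that setting (unadjusted p = 0.109, adjusted p = 0.533). The 57 changed genes of the whole array became 31 with the replicate block, 21 at a threshold of 0.01 and 32 to 50 with an array left out. The 21 pathway genes at an unadjusted p under 0.05 (13.5%, against 17.3% of all genes) became 43 with arrays centred on their medians (27.7%, against 14.9%). List medians moved by more than the spread between replicates in 12 cases: 5 rose with that centring, 3 fell with quantile normalization and 4 moved with an array left out. The median of the other immediate early genes was 0.03 without WT array 3, against 0.09. An unadjusted limma p under 0.05 was reached by Fosl2 with that centring, with quantile normalization and without WT array 1, and by Junb with that centring, with array weights and without WT array 1 or 4.

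Correlations with an array left out ran from -0.495 to 0.603 for Fos and Fosl2, -0.0704 to 0.842 for Fos and Junb, -0.443 to 0.802 for Fosb and Fosl2, -0.516 to 0.906 for Fosb and Junb and -0.562 to 0.657 for Fosl2 and Jun, all negative without WT array 3. They ran from -0.0772 to 0.517 for Fosb and Jund and 0.642 to 0.972 for Fosb and Jun. Further quantile normalization turned Fosb and Jund to -0.0510 and Jun and Jund to -0.0464.

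Same-numbered arrays deviated with correlations of 0.0449, -0.0147, -0.0679 and 0.220. These were not set beside those of differently numbered arrays, so whether the numbers pair arrays was not settled. The median over all probe sets rose with replicate number, from 6.967 to 7.031 in WT arrays and from 6.96 to 7.002 in IIKO arrays. With the replicate block the members' differences stayed the same by construction, since each number held 1 array of either group. Only the p could move, and no member passed (limma adjusted p from 0.3557 for Junb to 0.7325 for Jun). Signal over background was not analysed here.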
